A study of Mus musculus with 24 samples.

Results

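The comparison described here sets mutant luminal Sca1-positive cells against mutant basal cells, both GFP-positive and both sorted from mammary glands of the same mouse genotype. It uses 3 arrays of each population, 6 of the 24 arrays of the study, chosen by their sample titles, and covers 19937 genes that had a probe set with a single gene symbol on an Affymetrix mouse Gene 1.0 ST array. All mice carried Lgr5-creERT2, a tamoxifen-activated Cre recombinase under control of the Lgr5 locus, on a mixed FVB/C57BL6 background. Mutant mice also carried a PIK3CA H1047R transgene, switched on by tamoxifen, and control mice did not. Glands were collected 4 weeks after tamoxifen from pools of 2 to 3 mice per genotype, synchronised in estrus, in 3 separate sortings, and the labels call the tissue preneoplastic. Cells without CD45, a leukocyte surface protein, were split by CD24, with CD24 low and no Sca1 taken as basal and CD24 high as luminal, the latter divided by Sca1. They were then gated on GFP. By the labels GFP reports expression of Lgr5, of the mutant kinase or of both. RNA from 250 cells per sample was amplified before labelling. For comparison, mutant luminal Sca1-negative cells (GFP-positive), control luminal Sca1-positive and control basal cells (both GFP-negative) and, in one alternative, control basal GFP-positive cells are used, with 3 arrays each. The mice's ages are not given in the sources used here. In the 2 mutant groups compared the GFP gate is the same, and the gates differ in both CD24 and Sca1. Whether GFP reports Lgr5, the mutant kinase or both need not be alike in the 2 groups, and was not tested.

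The mammary epithelium has an outer basal layer of myoepithelial cells, which contract under oxytocin to eject milk and secrete the basement membrane, and an inner luminal layer. Luminal cells with high surface Sca1 include the hormone-sensing cells, which carry the estrogen and progesterone receptors and pass hormonal signals on to their neighbours. Luminal cells without Sca1 are enriched in progenitors of the secretory, milk-making alveolar cells. H1047R is an activating change in the catalytic subunit of phosphoinositide 3-kinase, an enzyme that transmits growth factor signals to AKT.

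Values are deposited log2 expression levels, so that a difference of 1 is 2-fold. Levels of different genes are not on a common scale and are not set against each other. Array lists below run from replicate 1 to replicate 3, and "luminal" and "basal" alone mean the 2 mutant GFP-positive groups of the main comparison. Differences are luminal minus basal, with the standard error of a limma fit, and a gene was called where its Benjamini-Hochberg adjusted p over all genes was under 0.05, two-sided. A group mean under 4.66, the median gene level over all 24 arrays, is called dim, and the size of a difference against a dim group is not exact. The p-values measure spread between replicate arrays within groups, taken over all 8 groups. That spread holds differences between pools of mice, sortings and amplifications together, and the main fit did not pair arrays. Genes beyond those named by the fixed rule were chosen after their values were seen.

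One library stood apart from the rest of its group in its basal genes, though not over all genes. The lowest within-group correlation, 0.971, was that of luminal replicates 1 and 3, and replicate 3 had the lowest luminal array weight (1.05 against 1.29 in replicate 1). Luminal replicate 1 had higher levels of basal genes than the other luminal arrays. Among 31 basal adhesion and contractile genes called lower in luminal cells by more than 2 on the log2 scale, 23 were highest in replicate 1 of the 3 luminal arrays, and their mean level was 6.28, 5.47 and 5.44 in luminal replicates 1, 2 and 3. The same genes averaged between 9.40 and 9.73 in the basal arrays. Replicate 1 was also the luminal array highest in Elf5 and Kit, genes of luminal progenitors, and lowest in Pgr, the progesterone receptor. The share of these values that comes from other cells in the gate was not tested, and counts are given with and without that array. Correlations across genes within each group lay between 0.971 and 0.979, and those between a luminal and a basal array between 0.896 and 0.922. The control basal GFP-positive arrays correlated least with each other (0.934 to 0.940).

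The genes that the mice and the sort were built on were read first. Pik3ca, which encodes the mouse p110-alpha subunit, stood at 7.62, 7.76 and 7.79 in the luminal arrays and at 7.94, 7.84 and 8.42 in the basal arrays. The luminal levels lay below the basal ones, and the difference of -0.35 (standard error 0.21) did not pass the test (adjusted p = 0.426). Whether its probe set also reads the transgene is not given in the sources used here. Lgr5, the R-spondin receptor gene that carries the Cre, stood at 4.42, 4.24 and 4.42 in luminal and at 7.29, 6.08 and 5.53 in basal cells. It was dim in luminal cells and lower there (difference -1.94, standard error 0.39, adjusted p = 0.00245), a call lost when the 6 arrays were fitted alone, called the 6-array fit below (adjusted p = 0.0558). Cd24a, which encodes the antigen of the gate, stood 0.65 higher in luminal cells (11.45, 11.87 and 11.62 against 11.09, 11.06 and 10.83). All its luminal levels were above the basal ones, yet the difference missed the threshold (adjusted p = 0.057) and passed it in 6 of 13 alternative settings. The Sca1 gene, Ly6a, could not be read, since no probe set used here carries its symbol.

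Lineage keratins followed the gates. Krt5, a keratin of the basal layer, stood at 7.98, 5.18 and 6.28 in luminal and 11.93, 11.84 and 11.98 in basal cells, 43.4-fold higher in basal cells (difference -5.44, standard error 0.43, adjusted p = 5.18e-08). Krt14, its usual partner, stood at 8.97, 6.90 and 6.41 against 11.36, 11.49 and 11.28 (difference -3.95, adjusted p = 2.14e-06). The luminal arrays were far below the basal ones for both genes, and luminal replicate 1 had the highest luminal level of each. Krt19, a luminal keratin, showed the opposite order, with 11.96, 11.99 and 12.06 in luminal and 6.37, 7.63 and 5.44 in basal cells, a 46.1-fold difference (adjusted p = 3.35e-09). Krt8 (difference 1.59, adjusted p = 3.01e-05) and Krt18 (2.59, 3.37e-05) were higher in luminal cells too, though basal cells had levels of 10.58 to 11.28 and 9.16 to 11.002. In bulk samples such as these, fewer cells of a type and less RNA per cell cannot be told apart.

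**Figure D1:**
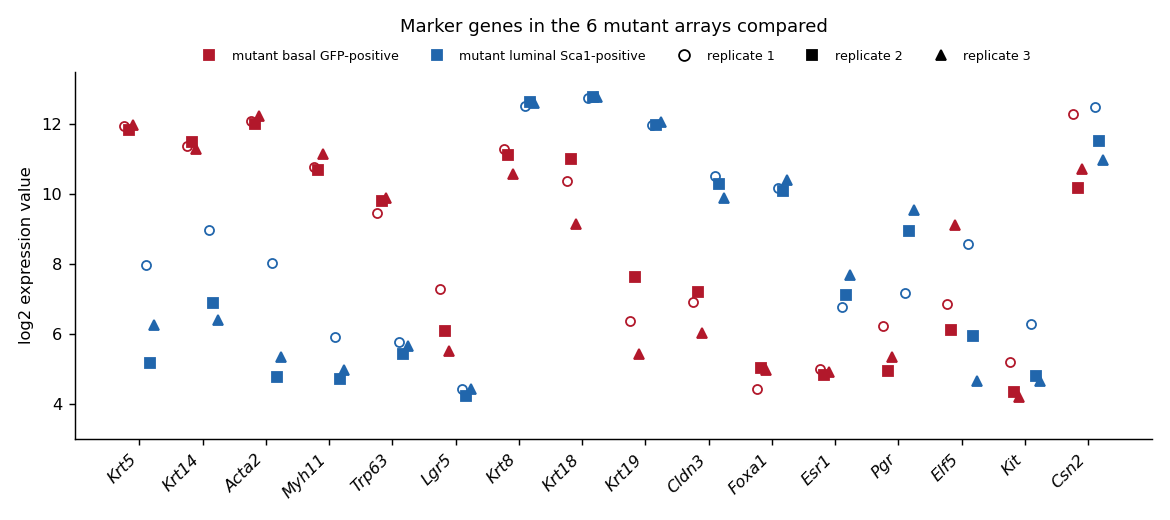
Log2 expression values (vertical axis) of 16 lineage marker genes (horizontal axis) in the 3 mutant basal GFP-positive arrays (red) and the 3 mutant luminal Sca1-positive arrays (blue), with replicate 1 as open circles. Basal and luminal points do not overlap for Krt5, Acta2, Krt19 or Foxa1, while those of Elf5, Kit and Csn2 do, and luminal replicate 1 is the highest blue point for Krt5, Acta2, Elf5 and Kit.

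In all, 943 genes were called higher in luminal cells (4.73% of those tested) and 995 lower (4.99%), 1938 in total (9.72%). Of these 1938 genes, 579 higher and 755 lower ones differed by at least 2-fold, and 88 and 164 by at least 8-fold. Without luminal replicate 1 the total was 1725. The 3 luminal levels all lay above the 3 basal ones for 18.7% of genes, and the reverse held for 12.5%. The median difference over all genes was 0.04, and 15.9% of the called genes lay among the dimmer genes, those under the median gene level. Leaving out each of the 6 arrays in turn gave between 1528 and 1725 calls. With array weights the split turned to 1515 higher and 1366 lower.

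Among the genes highest in luminal relative to basal cells, AW112010 stood at 10.80, 10.85 and 10.42 against 4.12, 4.14 and 3.87, a difference of 6.65 (standard error 0.21, adjusted p = 4.12e-13). Wfdc2, a secreted protein with a whey acidic protein domain, stood at 11.43, 12.07 and 12.001 against 5.01, 6.20 and 5.79 (difference 6.17). Gpx3, the secreted glutathione peroxidase, followed with 6.10 and the keratin Krt4 with 6.0. For all these genes the lowest luminal array was far above the highest basal one, and Krt4 varied most, from 8.57 in replicate 1 to 10.67 in replicate 3. Ly6d, a Ly6 family surface protein (5.95), Tlcd4 (5.81), the ribonuclease Ang5 (5.67), the luminal keratin Krt7 (5.58) and Cxcl17, a mucosal chemokine (5.44), came next. The 12 largest differences in that direction ended with Foxa1 and Scnn1a, described below.

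In the other direction the largest difference was that of Vcan, which encodes the matrix proteoglycan versican. It stood at 6.26, 4.00 and 4.09 in luminal and 11.72, 11.46 and 11.86 in basal cells (difference -6.89, standard error 0.57, adjusted p = 1.02e-07). Igfbp3, a secreted binding protein of insulin-like growth factors, stood at 8.88, 4.36 and 4.81 against 12.19, 12.22 and 12.38 (difference -6.25). For both genes luminal replicate 1 stood far above the other luminal arrays and still below every basal one. Next came contractile genes and Sparc (-6.04), the matrilin Matn2 (-5.84), the chemokine Cxcl14 (-5.72), biglycan (Bgn, -5.71), Them5 (-5.58) and Sostdc1, a secreted antagonist of BMP and Wnt (-5.58).

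Contractile genes of the myoepithelium were lower in luminal cells: 21 of 36 measured were called lower and 0 higher, against 4.99% of all genes lower, with a median difference of -1.51 against 0.04 over all genes. Without luminal replicate 1, 18 were called lower. At an unadjusted p under 0.05, limma gave 1 contractile gene higher. Acta2, smooth muscle actin, stood at 8.04, 4.79 and 5.36 in luminal and 12.08, 12.01 and 12.22 in basal cells (difference -6.04, standard error 0.62, adjusted p = 1.63e-06). Myl9, the regulatory light chain of smooth muscle myosin, stood at 7.67, 4.65 and 4.80 against 11.86, 11.76 and 12.08 (difference -6.19). For both, luminal replicate 1 lay well above the other luminal arrays and below all basal arrays. Myh11, the myosin heavy chain (-5.66), set replicate 1 less apart, at 5.91, 4.73 and 4.97 against 10.77, 10.69 and 11.13. Cnn1, calponin (-5.50), Actg2, another smooth muscle actin (-4.57), and Tagln (-4.42) were called lower as well, as was Oxtr, the oxytocin receptor, at 4.16, 4.34 and 4.58 against 8.88, 8.68 and 9.02 (-4.50). The members not called included the regulators Srf (0.84), Myocd (0.09) and Mrtfa (-0.67), which act together at contractile promoters.

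The promoter windows of the contractile genes are shown because serum response factor, with its myocardin-type partners, is known to act at smooth muscle genes through CArG boxes. The windows hold the 250 bases before the RefSeq gene start, 5′ to 3′ on the gene's strand, with CArG boxes in capitals (build GRCm38.p6). A box was searched as CC, then 6 bases that are A or T with at most 1 exception, then GG, which reads alike on both strands. Myl9 and Acta2 are printed as the most different contractile genes, at chr2:156775214-156775463 (plus strand) and chr19:34255374-34255623 (minus strand).
Myl9: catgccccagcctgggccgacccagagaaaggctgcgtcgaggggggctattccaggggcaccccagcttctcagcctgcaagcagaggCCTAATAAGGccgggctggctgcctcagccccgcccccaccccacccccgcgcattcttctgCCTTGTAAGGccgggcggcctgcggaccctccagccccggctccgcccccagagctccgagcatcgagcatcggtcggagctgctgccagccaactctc
Acta2: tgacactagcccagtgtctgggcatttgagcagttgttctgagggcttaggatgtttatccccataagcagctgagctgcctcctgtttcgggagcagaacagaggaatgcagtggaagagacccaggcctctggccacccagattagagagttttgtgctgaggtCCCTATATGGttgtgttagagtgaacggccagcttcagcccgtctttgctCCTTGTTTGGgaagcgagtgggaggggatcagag
The Myl9 window had boxes that began 161 and 99 bases before the start, and the first of these had A or T throughout its core. In the Acta2 window they began 84 and 34 bases before it, each with 1 exception. Of 32 contractile genes with a window, 9 held such a box (28.1%), and of the 18 called lower 4 did (22.2%, with Pdlim3 and Myl6), against 9.78% of 27025 genes. With no exception allowed the shares were 15.6%, 11.1% and 1.62%. A match describes letters in this window only.

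Genes of basal keratins, basement membrane and cell adhesion went the same way, with 26 of 36 called lower in luminal cells and 2 higher. Over all genes the shares were 4.99% and 4.73%. The list median was -1.61, and without luminal replicate 1 there were 24 and 3. Col17a1, a collagen of hemidesmosomes, stood at 5.89, 5.20 and 5.39 against 9.62, 9.33 and 9.85 (difference -4.11, standard error 0.18, adjusted p = 2.38e-11). Lama3, a laminin chain of epithelial basement membrane, stood at 5.62, 4.83 and 4.76 against 9.59, 9.38 and 9.88 (-4.54). These groups were separated by more than 3 log2 units, and luminal replicate 1 was the highest luminal array by under 1. Lama1 (-3.34) and Col4a5, a collagen IV chain (-2.26), were lower too. The exceptions were the laminin chain Lama5, at 8.77, 9.19 and 9.64 in luminal against 7.71, 7.60 and 7.16 in basal cells (1.71, adjusted p = 0.000971), and the integrin Itgb6 (1.55, adjusted p = 0.00188).

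The list of basal and mesenchymal transcription factors had 12 of 29 members called lower and 0 higher, against 4.99% and 4.73% of all genes. Without luminal replicate 1 the list had 11 and 0. Its members include genes of other kinds, among them Vim and the Notch ligand Jag1. At an unadjusted p under 0.05 limma gave 0 higher as well. Trp63, which encodes p63, the basal identity factor of stratified and glandular epithelia, stood at 5.78, 5.42 and 5.67 against 9.46, 9.80 and 9.89 (difference -4.09, standard error 0.39, adjusted p = 5.65e-07). Snai2, the zinc finger repressor SLUG, stood at 5.50, 5.01 and 4.83 against 9.96, 10.32 and 10.15 (-5.03). Luminal and basal levels of both were separated by more than 3, and luminal replicate 1 was not far from the others. Irx4 (-4.39) and the list's filament protein Vim (-4.51, 7.29 in luminal replicate 1 against 5.63 and 5.26) were called lower. The mesenchymal factors Snai1, Twist1, Zeb1 and Zeb2 were not called, with differences of 0.29, 0.15, -0.15 and 0.03.

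The matrix list had 24 of 48 genes called lower in luminal cells and 2 higher, against 4.99% and 4.73% of all genes. Its median was -0.67, and without luminal replicate 1 it had 20 and 2. Sparc, a collagen-binding matricellular protein, stood at 8.28, 5.46 and 5.22 against 12.37, 12.29 and 12.40. Bgn stood at 5.98, 5.63 and 4.95 against 11.19, 11.28 and 11.21, and the gelatinase Mmp2 at 4.58, 4.51 and 4.79 against 9.48, 9.80 and 9.23 (-4.87, standard error 0.28, adjusted p = 5.34e-10). Replicate 1 stood apart for Sparc and not for Bgn or Mmp2. The collagens called higher in luminal cells were Col8a1 (9.12, 8.84 and 7.41 against 4.51, 4.80 and 4.19, difference 3.96) and Col6a3 (6.14, 8.76 and 10.06 against 4.42, 4.80 and 4.63, difference 3.70). The Col6a3 levels of the luminal arrays spread over nearly 4 units, and its call ended in the 6-array fit (adjusted p = 0.081). The fibrillar collagen genes Col1a1 (0.07) and Col3a1 (-0.08) were not called.

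Of 38 luminal keratins and junction genes, 27 were called higher in luminal cells and 0 lower, against 4.73% of all genes higher (median 1.25; 24 and 0 without luminal replicate 1). By limma's unadjusted p under 0.05 there were also 0 lower. Cldn3, a tight junction claudin, stood at 10.53, 10.28 and 9.90 against 6.93, 7.20 and 6.04 (difference 3.52, standard error 0.29, adjusted p = 8.6e-08). Cgn, the tight junction adaptor cingulin, stood at 8.10, 8.12 and 8.93 against 5.62, 5.35 and 5.36 (2.94). Spint1, an inhibitor of membrane serine proteases, stood at 10.69, 10.57 and 10.65 against 7.59, 8.30 and 6.86 (3.05). Luminal arrays agreed within 1 unit for each of these, and basal replicate 3 was the lowest basal array for Cldn3 and Spint1. Epcam, an epithelial surface marker that the basal gate also expresses, differed by 0.87 (10.01, 10.20 and 10.09 against 9.26, 9.46 and 8.96, adjusted p = 5.82e-05).

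**Figure D2:**
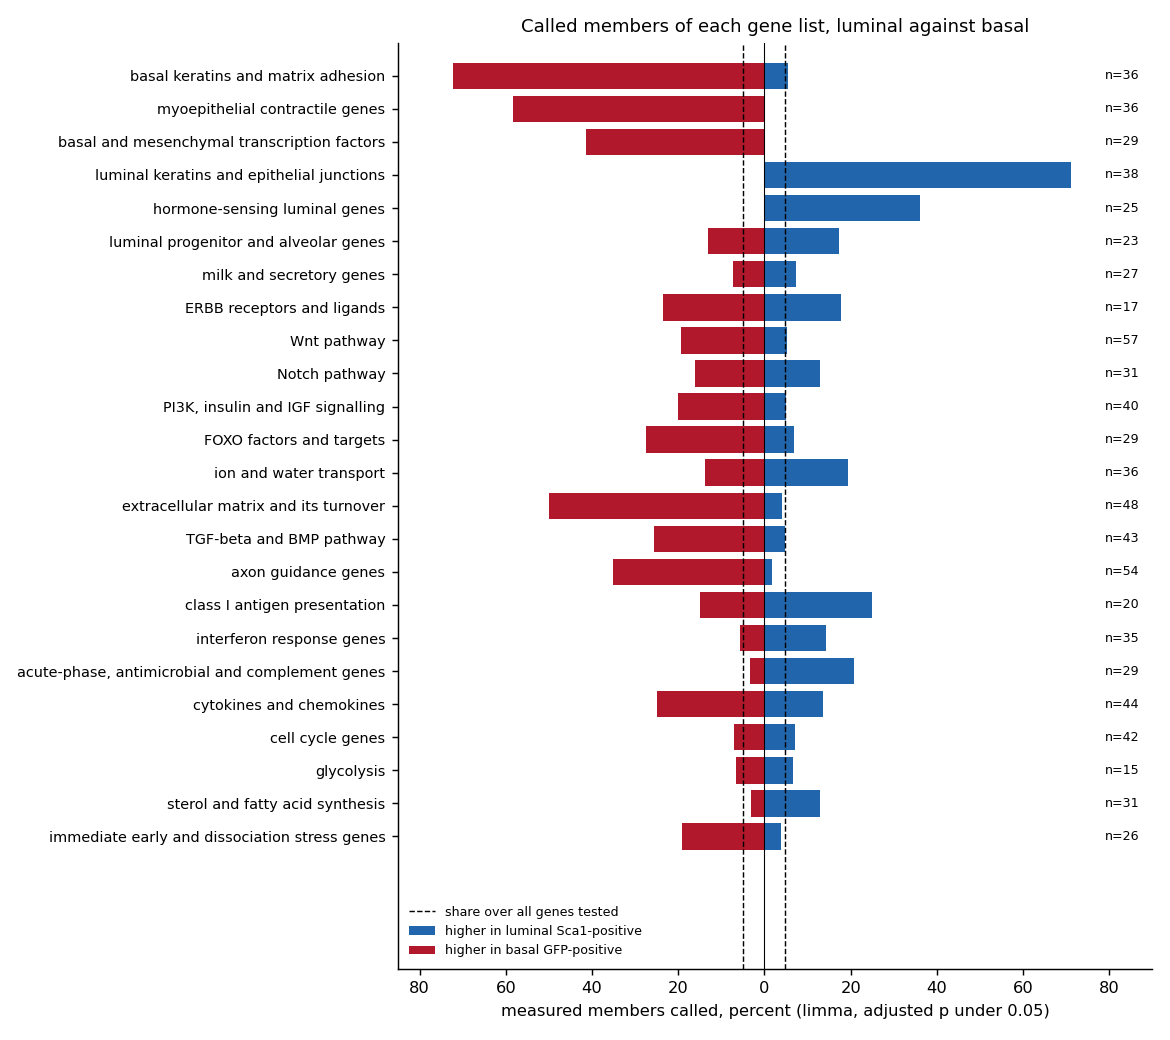
Share of the measured members of 24 gene lists (rows, with the number measured) called higher in mutant luminal Sca1-positive cells (blue, to the right) or in mutant basal GFP-positive cells (red, to the left), in percent on the horizontal axis. Dashed lines mark the shares over all genes tested, 4.73% and 4.99%. Basal keratin (26 of 36), contractile (21 of 36) and matrix (24 of 48) lists reach farthest to the left and luminal junctions (27 of 38) farthest to the right.

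Hormone-sensing genes were higher in luminal Sca1-positive cells: 9 of 25 measured were called higher and 0 lower, against 4.73% and 4.99% of all genes. These counts were the same without luminal replicate 1, and the list median was 0.38. By limma's unadjusted p under 0.05, 1 was lower. Foxa1, the pioneer factor of the estrogen receptor, stood at 10.17, 10.09 and 10.40 against 4.44, 5.04 and 4.97, a 42.4-fold difference (5.41, standard error 0.46, adjusted p = 1.28e-07). Cited1, a transcriptional cofactor of the estrogen receptor, stood at 11.76, 11.59 and 11.71 against 6.08, 6.50 and 8.37 (4.71). Esr1, the receptor itself, stood at 6.79, 7.13 and 7.69 against 5.01, 4.82 and 4.92 (2.29, adjusted p = 3.17e-05). Luminal levels were above basal ones throughout, and basal replicate 3 had the highest basal Cited1. Pgr stood at 7.18, 8.96 and 9.54 against 6.24, 4.95 and 5.35, with replicate 1 lowest among luminal and highest among basal arrays (3.05, standard error 0.57, adjusted p = 0.00119). That call ended in the 6-array fit (adjusted p = 0.0515). Stc2, a secreted glycoprotein (4.33), Prom1, a surface marker of these cells (2.42), Wnt4, a paracrine target of progesterone (1.50), Stat5a (1.33) and Myb (1.27) made up the rest of the called members. Gata3 (-0.26), Tbx3 (0.91), Tnfsf11, which encodes RANKL (0.14), and Greb1 (0.08) were not called, and Prlr, Areg and Calca could not be read.

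Luminal progenitor and alveolar genes were mixed, with 4 of 23 called higher and 3 lower in luminal Sca1-positive cells (3 and 5 without replicate 1). Over all genes 4.73% were called higher and 4.99% lower. Aldh1a3, a retinal dehydrogenase used as a progenitor marker, stood at 8.12, 7.52 and 7.25 against 5.27, 5.50 and 4.72 (difference 2.47, standard error 0.31, adjusted p = 1.94e-05). Elf3, an epithelial ETS factor, was higher by 3.17 and Basp1 by 2.33. Elf5, the ETS factor of alveolar cells, stood at 8.58, 5.96 and 4.67 against 6.85, 6.11 and 9.12, and was not called (-0.96, adjusted p = 0.578). Its levels overlapped between the groups, with luminal replicate 1 and basal replicate 3 high. Kit, a progenitor receptor, stood at 6.29, 4.79 and 4.68 against 5.20, 4.34 and 4.20 (0.67, adjusted p = 0.348). Tspan8 (-2.90) and Mfge8, a milk fat globule protein (-1.42), were called lower, and both calls ended in the 6-array fit (adjusted p = 0.0661 and 0.145), as did that of the higher Ltf, lactoferrin (1.97, 0.181). The Mfge8 call also ended without basal replicate 1 (0.0627) or 2 (0.0613) or luminal replicate 3 (0.135), and the Ltf call without basal replicate 3 (0.0698) or luminal replicate 1 (0.0588).

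Among milk genes 2 of 27 were called higher and 2 lower, against 4.73% and 4.99% of all genes (0 and 2 without luminal replicate 1). Csn2, beta-casein, stood at 12.48, 11.51 and 10.96 in luminal and 12.28, 10.17 and 10.70 in basal cells (difference 0.60, standard error 0.62, adjusted p = 0.694). The ranges overlapped, and replicate 1 was the highest array in both groups. The means of 11.65 and 11.05 compare with 5.60 in control luminal Sca1-positive and 5.32 in control basal GFP-negative cells. Csn1s2a (11.52, 6.25 and 9.16 against 10.13, 5.22 and 9.60) and Wap, whey acidic protein (10.96, 8.84 and 5.64 against 9.79, 7.22 and 6.32), varied more between replicates than between the cell types. The member with the clearest difference was Xdh, xanthine dehydrogenase, a protein of the milk fat globule, at 5.38, 4.56 and 4.43 against 8.03, 8.13 and 7.51 (-3.10, adjusted p = 3.14e-06).

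**Figure D3:**
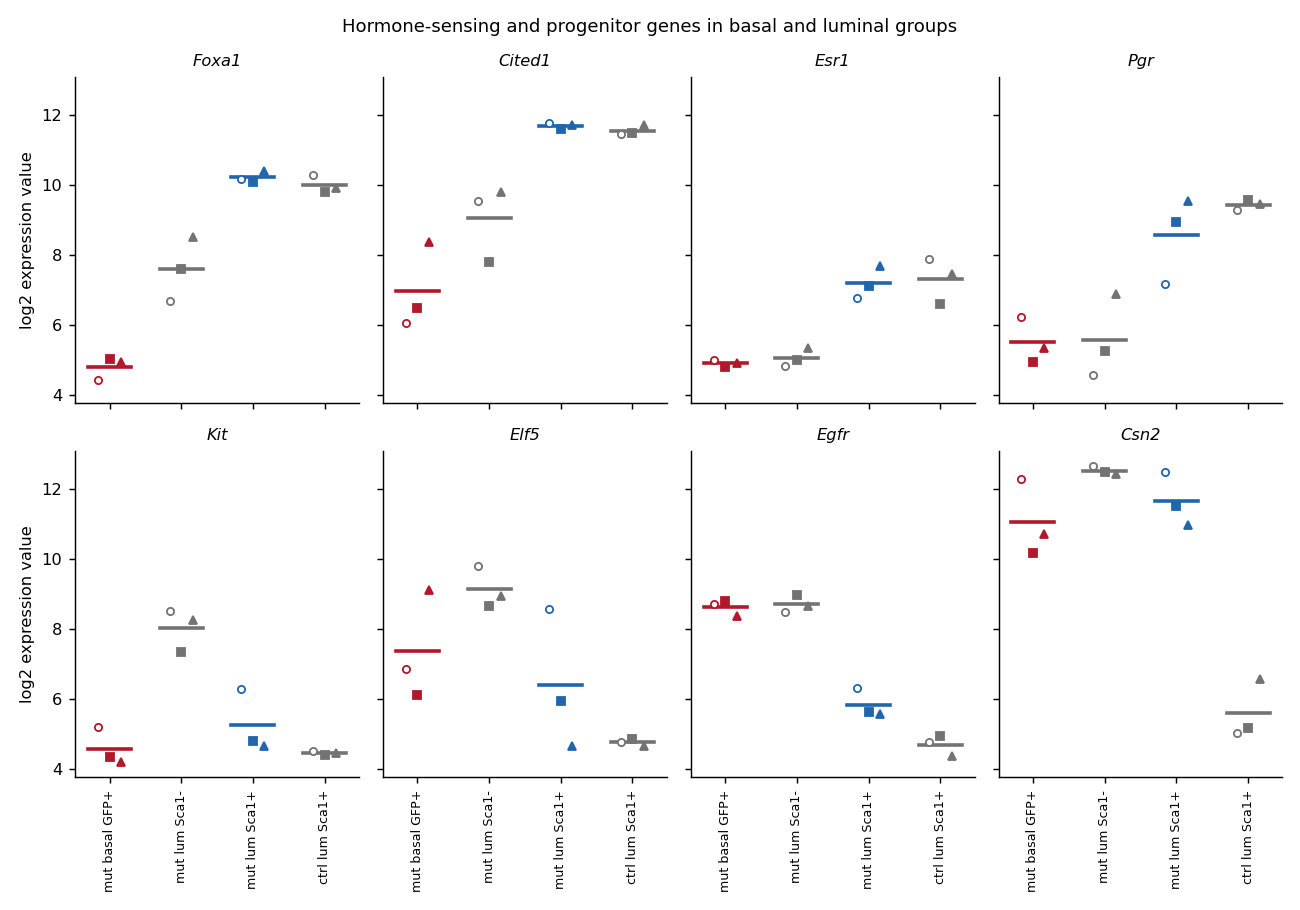
Log2 expression values (vertical axis) of 8 genes in mutant basal GFP-positive (red), mutant luminal Sca1-negative (grey), mutant luminal Sca1-positive (blue) and control luminal Sca1-positive (grey, far right) arrays, with means as lines (replicate 1 open circles, 2 squares, 3 triangles). Foxa1, Cited1, Esr1 and Pgr are highest in the Sca1-positive groups, Kit and Egfr differ between the mutant luminal groups, and Csn2 is high in all 3 mutant groups against 5.60 in the control.

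Receptors and ligands of the ERBB family were divided between the layers. Erbb3, the kinase-impaired receptor of neuregulins, stood at 8.70, 8.57 and 8.65 in luminal and 4.66, 4.62 and 4.49 in basal cells, a 16.6-fold difference (4.05, standard error 0.21, adjusted p = 1.96e-10). Erbb2, its usual partner, stood at 8.67, 8.35 and 7.87 against 5.92, 6.16 and 6.38 (2.14, adjusted p = 0.000283). The neuregulin Nrg1, a ligand of ERBB3 and ERBB4, had the reverse order, 5.80, 4.82 and 5.10 against 10.11, 10.69 and 10.56 (-5.21, adjusted p = 3.92e-08). Neither receptor nor ligand overlapped between the groups. Egfr, the receptor of EGF, was lower in luminal cells (6.30, 5.65 and 5.58 against 8.73, 8.79 and 8.37, difference -2.79), and so was Lrig1, a negative regulator of these receptors (-1.59). Of 17 measured members 3 were called higher and 4 lower (3 and 3 without replicate 1), against 4.73% and 4.99% of all genes. The call of the ligand Hbegf (2.11) ended without basal replicate 3 (adjusted p = 0.0811) and without luminal replicate 2 (0.0522). That of Ereg (-1.51) ended in the 6-array fit (adjusted p = 0.296) and without any 1 of 5 of the 6 arrays (0.0549 to 0.0804).

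Wnt pathway genes had 3 of 57 called higher in luminal cells and 11 lower, against 4.73% and 4.99% of all genes. The higher count lay near its share. The list median was -0.06, and without luminal replicate 1 there were 3 and 10. The ligands Wnt4 (6.61, 6.61 and 6.71 against 5.18, 5.06 and 5.20) and Wnt7b (6.31, 7.08 and 6.41 against 4.74, 5.01 and 5.02) were higher in luminal cells, by 1.50 and 1.68. Receptors were lower there: Lgr4, an R-spondin receptor like Lgr5, stood at 4.88, 4.48 and 4.38 against 8.49, 8.54 and 8.89 (-4.07, standard error 0.32, adjusted p = 4.23e-08), and the Frizzled receptor Fzd7 at 6.60, 6.31 and 6.43 against 9.29, 9.31 and 9.23 (-2.83). Ligand and receptor levels lay in opposite layers, and the groups did not overlap for these 4 genes. Lgr6 (-2.19) and the secreted Wnt antagonist Sfrp1 (-3.89) were lower in luminal cells. Ccnd1, cyclin D1, a Wnt target as well as a cell cycle gene, was higher there (10.08, 10.21 and 10.56 against 7.20, 7.28 and 7.79, difference 2.86, adjusted p = 0.00149), while the target Axin2 was not called (-0.06).

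In the Notch pathway, ligands were high in basal cells and the receptor Notch3 in luminal cells. Of 31 members 4 were called higher and 5 lower (3 and 6 without luminal replicate 1), against 4.73% and 4.99% of all genes. The ligand Dll1 stood at 5.15, 4.80 and 5.04 against 8.74, 8.83 and 9.06 (-3.88, standard error 0.20, adjusted p = 2.13e-10). Jag1 stood at 6.43, 6.21 and 6.66 against 9.82, 9.90 and 9.68 (-3.37), and Jag2 was lower too (-2.24). All luminal levels of these ligands were below all basal ones. The receptor Notch3 stood at 6.49, 6.24 and 6.41 against 5.28, 5.24 and 5.25 (1.12, adjusted p = 4.02e-06), and Adam10, a protease that cleaves Notch receptors, was higher by 1.79. The receptor Notch2 was called (0.98, adjusted p = 0.0436), but not without any 1 of the 6 arrays (0.0758 to 0.142) or with quantile normalization (0.0592). The targets Hes1 (0.62), Hey1 (-1.16) and Nrarp (0.43) were not called.

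Genes of PI3K, insulin and IGF signalling had 2 of 40 members called higher and 8 lower, against 4.73% and 4.99% of all genes. The higher count lay near its share, and both counts were the same without luminal replicate 1. Among those lower were 5 IGF binding proteins, which hold IGFs outside the cell: Igfbp3, Igfbp2 (-4.79), Igfbp4 (-3.64), Igfbp5 (-3.08) and Igfbp7 (-2.97). Igfbp2 stood at 5.56, 5.29 and 5.29 against 10.36, 9.56 and 10.58, and Igfbp5 at 10.73, 8.99 and 8.46 against 12.41, 12.46 and 12.57. Luminal replicate 1 was the highest luminal array for Igfbp3 and Igfbp5 and close to the others for Igfbp2. The regulatory subunits Pik3r1 (-1.78) and Pik3r2 (-1.35) and the adaptor Irs2 (-0.84) were called lower. The catalytic subunit Pik3cb (0.82), the kinases Akt1 (0.19), Akt2 (-0.16) and Mtor (-0.04) and the mTOR inhibitor Tsc2 (0.48) were not called.

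FOXO factors, which AKT keeps out of the nucleus, and their targets had 8 of 29 members called lower in luminal cells and 2 higher. Over all genes the shares were 4.99% and 4.73%. The list median was -0.41, and without luminal replicate 1 there were 7 and 2. Cited2, a transcriptional coregulator, stood at 9.20, 8.97 and 8.57 against 10.87, 11.001 and 10.62 (-1.92, standard error 0.21, adjusted p = 2.55e-06). The sestrin Sesn3 stood at 6.64, 6.21 and 7.14 against 9.64, 9.12 and 9.36 (-2.71), and Cat, catalase, at 7.48, 6.85 and 6.91 against 9.21, 9.36 and 9.23 (-2.19). The groups did not overlap for these genes. Pdk4, a kinase of pyruvate dehydrogenase, ranged from 4.76 to 9.76 over the luminal arrays against 10.48 to 10.86 in basal cells, and its call ended in the 6-array fit (adjusted p = 0.159). Foxo1 was lower (-0.74) and Foxo3 was not called (-0.41).

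Ion and water transport genes had 7 of 36 called higher in luminal cells and 5 lower, against 4.73% and 4.99% of all genes. Without replicate 1 there were 6 and 5. Scnn1a, the alpha subunit of the epithelial sodium channel, stood at 9.24, 9.17 and 9.73 against 4.58, 3.70 and 3.74 (5.37, standard error 0.58, adjusted p = 2.71e-06). Clcn3, a chloride transporter (2.07), the water channel Aqp5 (1.58) and Atp2c2, a secretory pathway calcium pump (1.49), were higher too. Car12, a membrane carbonic anhydrase, stood at 5.03, 4.46 and 4.63 against 9.003, 9.74 and 8.98 (-4.53, adjusted p = 7.23e-09), and the sodium pump subunit Atp1b3 was lower (-2.26). These channels and enzymes were separated without overlap in the 6 arrays.

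Guidance and growth factor genes had more calls higher in basal than in luminal cells. Over all genes 4.99% were called lower and 4.73% higher. Of 54 axon guidance genes 19 were called lower in luminal cells and 1 higher (16 and 0 without luminal replicate 1). The semaphorins Sema3c (4.50, 4.59 and 4.81 against 8.45, 8.39 and 8.18, difference -3.71) and Sema6a (-3.76), the SLIT ligand Slit3 (-2.91) and the semaphorin receptor Plxna2 (-2.10) led these calls. In the TGF-beta and BMP pathway 11 of 43 were called lower and 2 higher (11 and 1 without replicate 1), the higher count near its share. The co-receptor Tgfbr3 stood at 5.42, 5.04 and 4.83 against 9.44, 9.74 and 9.81 (-4.56, standard error 0.22, adjusted p = 7.67e-11). The secreted antagonist follistatin, Fst, stood at 6.45, 6.33 and 4.92 against 10.24, 10.34 and 10.06 (-4.31), and Fstl1 was lower too (-4.03). For Tgfbr3 and Fst every basal array was at least 3 units above every luminal one. The type I and II receptors Tgfbr1 (-0.26) and Tgfbr2 (-0.03) were not called.

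Chemokines divided between the layers as well, with 6 of 44 cytokine genes called higher in luminal cells and 11 lower (5 and 11 without replicate 1). Over all genes the shares were 4.73% and 4.99%. Cxcl14 stood at 5.90, 5.10 and 4.89 against 11.001, 10.89 and 11.16 (-5.72, standard error 0.21, adjusted p = 2.67e-12), and Cxcl12, the ligand of CXCR4, at 5.08, 5.002 and 5.02 against 9.63, 9.96 and 9.49 (-4.66). Ackr3, a scavenging receptor of CXCL12 (-3.60), and the monocyte chemokine Ccl7 (-4.01) were lower. Cxcl17 had the reverse order (10.19, 9.54 and 9.83 against 4.49, 4.39 and 4.36), as did Cxcl15, which spread from 7.37 to 9.93 in luminal cells (3.46 to 3.52 in basal cells, difference 5.10). No array of these genes crossed to the range of the other group. Il33, an alarmin cytokine of epithelia, stood at 10.48, 10.81 and 10.74 against 9.40, 8.21 and 8.53 (1.97, adjusted p = 0.00291), and Tnf was higher by 3.00.

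Antigen presentation and innate defence genes were higher in luminal cells where they differed most. The counts of these lists stand against 4.73% of all genes called higher and 4.99% lower. The immunoproteasome subunit Psmb8 stood at 8.55, 8.98 and 9.17 against 7.08, 6.86 and 6.93 (1.95, standard error 0.27, adjusted p = 6.58e-05). Psmb9 (1.90), the peptide transporter Tap2 (1.59) and the proteasome activator Psme1 (1.13) were higher too, among 5 of 20 class I genes called higher. The 3 called lower were the endoplasmic reticulum chaperones Calr (-0.68), Pdia3 (-0.71) and Canx (-0.43), and without luminal replicate 1 there were 5 and 2. Canx was not called in the 6-array fit (adjusted p = 0.106), nor without any 1 array other than luminal replicate 3 (0.0548 to 0.19). Interferon response genes had 5 of 35 higher and 2 lower (4 and 1 without replicate 1), with Isg20 (1.91) and Bst2, tetherin (1.59), higher and Ifitm3 (-0.81) lower. Of 29 acute-phase, antimicrobial and complement genes 6 were higher and 1 lower (5 and 2 without replicate 1). Haptoglobin, Hp, stood at 10.29, 10.26 and 9.55 against 4.87, 6.01 and 4.91 (4.77, adjusted p = 9.55e-07), and clusterin, Clu, was higher by 2.78. The lipocalin Lcn2 (-0.38) and the serum amyloid genes Saa1 (-1.31) and Saa2 (-1.64) were not called.

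Counts in the lists of proliferation, general metabolism and stress stand against 4.73% of all genes called higher and 4.99% lower. Of 42 cell cycle genes 3 were called higher and 3 lower (3 and 2 without replicate 1). Cyclin D2, Ccnd2, was lower in luminal cells (5.33, 5.42 and 5.41 against 7.42, 7.70 and 7.85, difference -2.27), the reverse of Ccnd1. The proliferation genes Mki67 (-0.04), Top2a (0.43) and Cdk1 (-0.05) were not called. In sterol and fatty acid synthesis 4 of 31 were higher and 1 lower (3 and 2 without replicate 1), with Scd1, stearoyl-CoA desaturase, at 11.43, 11.62 and 11.21 against 8.26, 8.67 and 7.36 (3.32, adjusted p = 0.00239) and the malic enzyme Me1 higher by 3.56. Both groups of levels were separated by more than 2 units. Glycolysis had Pfkfb3 higher (1.41) and the phosphofructokinase Pfkp lower (-2.06) of 15, and 0 and 2 without luminal replicate 1, where Pfkfb3 lost its call (adjusted p = 0.0551), as it did without basal replicate 1 (0.0538) or 3 (0.0698). Of 26 immediate early and dissociation stress genes 1 was higher and 5 lower (1 and 3 without replicate 1), among the latter Myc (-0.52) and Socs3 (-1.54). Of 15 ribosomal protein genes limma called 0, with 3 at an unadjusted p under 0.05 and no difference over 0.214.

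Calls among markers of cells other than epithelium stand against 4.73% of all genes called higher and 4.99% lower. The mean level lay under the median gene level of 4.66 in all 6 arrays for the leukocyte, endothelial, adipocyte and erythroid lists, above it for the pericyte and Schwann cell lists, and above it in basal cells alone for the fibroblast list. Ptprc, which encodes CD45, stood at 4.06, 4.11 and 4.11 in luminal and 4.14, 4.09 and 4.18 in basal cells (adjusted p = 0.858). Of 23 leukocyte markers 1 was called, the actin-bundling Lcp1 (2.85, higher in luminal cells), and the list's mean level was 4.24 in each luminal array and 4.02 to 4.06 in the basal ones. Of 15 endothelial markers Eng (2.66) and Vwf (0.31) were higher, while Pecam1 (0.16) and Cdh5 (-0.07) were not called, and the list's mean was 4.28 to 4.44 in luminal and 4.08 to 4.14 in basal arrays. Fibroblast markers had 2 of 13 called lower in luminal cells, Col1a2 (-1.16) and Dcn, decorin (-2.59), with list means of 4.40 to 4.53 and 4.75 to 4.95 and Pdgfra not called (0.10). The Dcn call ended in the 6-array fit (adjusted p = 0.066) and without basal replicate 2 (0.0616) or 3 (0.066) or luminal replicate 1 (0.0541) or 3 (0.128). The Vwf call ended in that fit (0.151) and without any 1 array other than luminal replicate 1 (0.063 to 0.258). Pericyte markers had 1 of 10 called higher and 1 lower. Adipocyte markers had 0 of 9 called (1 by limma's unadjusted p under 0.05), and erythroid markers 1 of 3 higher. That erythroid gene was Alas2 (0.34, adjusted p = 0.0475), whose call was lost in 9 of 12 alternative settings. Without luminal replicate 1 the erythroid list had 0 called. The means of the pericyte, adipocyte and erythroid lists, in that order, were 4.86 to 4.98 against 5.04 to 5.18, 4.25 to 4.42 against 4.22 to 4.34, and 4.19 to 4.32 against 4.12 to 4.20 in luminal against basal arrays. Among 8 Schwann cell markers, 5 were called, Erbb3 and Mbp higher and Pmp22, Sox10 and Ncam1 lower, with list means of 5.17 to 5.56 and 5.47 to 5.65. The part of such cells in the epithelial differences was not tested.

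Whether the luminal against basal difference was the same in cells without the mutant kinase was read from control luminal Sca1-positive and control basal GFP-negative cells, which share no array with the mutant comparison. That control difference called 2616 genes (13.1%), 1465 higher (7.35%) and 1151 lower (5.77%) in luminal cells. Quantile normalization turned that split to 1215 and 1427. Of the 1938 mutant calls 1164 (60.1%) were called the same way in control, which is 44.5% of the control calls, and 8 were called the opposite way. Across all genes the 2 sets of differences correlated with r = 0.765 (Spearman 0.523), a description over genes, which are not independent. Krt5 differed by -6.36 in control and -5.44 in mutant, Trp63 by -4.01 and -4.09, Foxa1 by 5.14 and 5.41, Cldn3 by 3.39 and 3.52 and Erbb3 by 4.45 and 4.05. None of these 5 genes passed the test of the difference between mutant and control.

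**Figure D4:**
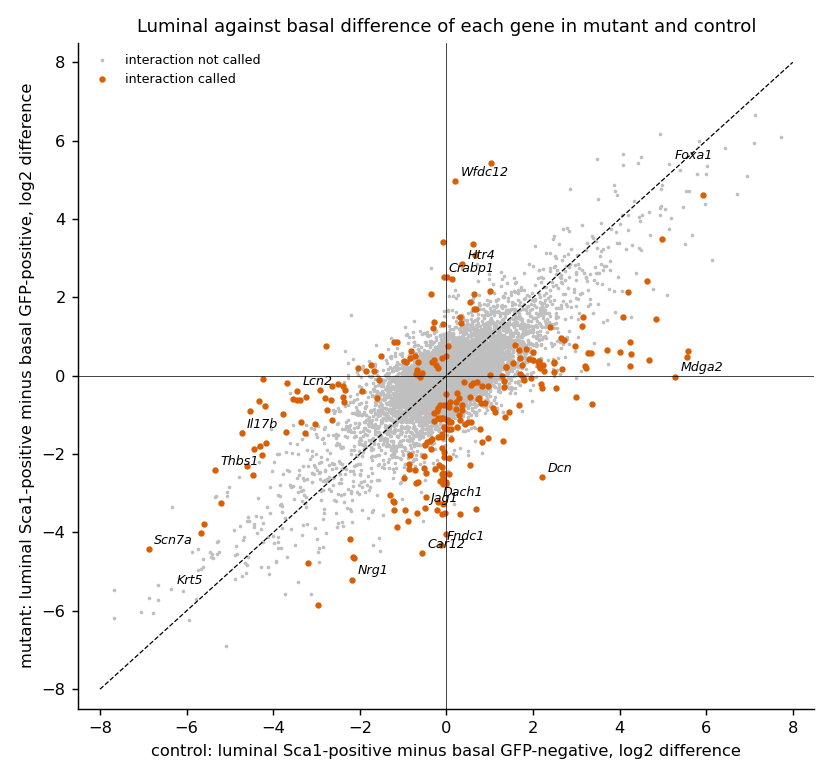
Each point is a gene, with its luminal Sca1-positive minus basal log2 difference in control cells (horizontal axis) and in mutant cells (vertical axis), and orange points are the 261 genes whose 2 differences were themselves unequal by the interaction test. Across all genes r was 0.765 (Spearman 0.523), which does not measure nearness to the dashed line of equality. Dach1, Fndc1, Jag1 and Car12 lie below that line near a control difference of 0, and Wfdc12, Htr4 and Crabp1 lie above it.

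The difference between the 2 lineage differences, an interaction of lineage and mouse group, was called for 261 genes (1.31%), 86 more positive in mutant (0.431%) and 175 more negative (0.878%). Both mutant groups were GFP-positive and both control groups GFP-negative, so genotype and GFP state cannot be told apart in this contrast. For the basal side, control basal GFP-positive cells give a GFP-positive control. Control mice lack the transgene, so their GFP cannot report the mutant kinase, and the GFP states are not fully matched. With control basal GFP-positive cells as reference 185 of the 261 genes kept their call. Of the 38 interactions named by rule 35 did (not Fstl1, Cdkn1c and Col1a2). The luminal groups have no GFP-positive control. For 182 of the 261 genes the basal groups differed more between mutant and control than the luminal groups did, and for 79 the luminal groups did. In 107 of the 175 negative cases the mutant basal level was more than 1 above the control basal one while the luminal levels lay within 1 of each other.

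Of the 8 negative cases with the smallest p, 6 were genes with their high level in mutant basal GFP-positive cells. Dach1, a nuclear cofactor of the retinal determination network, stood at 7.45, 7.35 and 7.50 there and at 4.29, 4.20 and 4.16 in mutant luminal cells. Its control basal levels were 4.46, 4.20 and 4.47 and its control luminal ones 4.13, 4.24 and 4.16, giving an interaction of -3.02 (adjusted p = 4.8e-10). The 3 mutant basal arrays were the only high ones among these 12, and the means of the remaining 4 groups lay between 4.27 and 4.89. Fndc1, a fibronectin domain protein, stood at 8.74, 9.20 and 7.92 in mutant basal cells and averaged 4.30 in mutant luminal, 4.28 in control luminal and 4.41 in control basal cells (interaction -4.19). The lipase Lipk (7.34 in mutant basal cells, 3.81 to 3.92 in the other 3 groups), the lipoxygenase Alox12e (8.37 against 4.72 to 4.88), Brinp1 (7.99 against 4.39 to 4.61) and the heparanase-like Hpse2 (5.73 against 3.58 to 3.65) had the same order. These genes were dim or nearly so in the other 3 groups. Lratd1 averaged 8.67 in mutant basal and 6.08 in control basal cells, with luminal means of 7.003 and 7.39, so that its difference was -1.66 in mutant and 1.31 in control (interaction -2.97).

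Signalling genes of the lists showed it too. Jag1 averaged 9.80 in mutant and 7.14 in control basal cells, against 6.43 and 6.64 in luminal cells, so that the control difference of -0.50 was not called (adjusted p = 0.21) and the interaction of -2.86 was (0.0001). Nrg1 averaged 10.45 and 6.74 in mutant and control basal cells (interaction -3.04, adjusted p = 0.0088), Car12 9.24 and 4.90 (-3.97) and Cxcl12 9.70 and 7.36 (-2.52). The basal level was higher in mutant than in control cells for each of them, with luminal means that differed by less than 1. Sesn3 (-2.71), Xdh (-2.63), the endothelin receptor Ednrb (-2.74) and Plxna2 (-2.17) followed the same order. The Sesn3 call ended without control luminal replicate 1 (adjusted p = 0.0508) or 3 (0.06), mutant basal replicate 1 (0.0528) or mutant luminal replicate 2 (0.0541). The Dcn interaction of -4.80 combined a control difference of 2.21 with a mutant one of -2.59, and its call ended when the 4 groups were fitted alone (adjusted p = 0.0603).

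In the positive direction, Wfdc12, another whey acidic protein family member, stood at 9.90, 8.71 and 8.73 in mutant luminal and 4.63, 3.97 and 3.86 in mutant basal cells (31.1-fold), and at 4.90, 4.01 and 4.29 and 4.28, 4.05 and 4.23 in the control groups. The interaction was 4.75 (adjusted p = 1.1e-06). Htr4, a serotonin receptor, stood at 6.86, 7.34 and 7.39 in mutant luminal cells against means of 4.35, 4.95 and 4.58 in mutant basal, control luminal and control basal cells (2.48), and Crabp1, a cytoplasmic retinoic acid binding protein, at 6.54, 7.38 and 6.20 against 4.18, 4.24 and 4.31 (2.59). For these genes the mutant luminal arrays stood alone above the rest of the 12. Aldh1a3 (2.33) had the same order, with a control luminal mean of 5.06.

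Other positive cases were genes low in control luminal Sca1-positive cells and higher in mutant luminal cells and both basal groups. Thbs1, thrombospondin 1, stood at 9.31, 8.96 and 8.99 in mutant luminal and 5.54, 5.17 and 6.05 in control luminal cells, with basal means of 11.49 and 10.94, so that the lineage difference was -2.41 in mutant and -5.35 in control (interaction 2.94, adjusted p = 1.2e-05). Lcn2 stood at 12.14, 11.76 and 10.93 against 8.71, 9.36 and 8.01 in the luminal groups, with basal means of 11.99 and 12.15 (3.08), and Il17b had luminal means of 9.04 and 5.44 (3.26). In each of them the mutant luminal level lay nearer to the basal level than the control luminal level did. Scn7a and Col14a1 differed in another way, with mutant basal means of 8.06 and 8.17 and control basal means of 10.57 and 9.99 (interactions 2.45 and 1.83). Mdga2, a neuronal adhesion protein, was high in control luminal cells alone among these 4 groups (8.43, 8.61 and 9.45) and dim in mutant luminal cells (3.48, 3.54 and 3.52), an interaction of -5.31 (adjusted p = 4.4e-06).

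**Figure D5:**
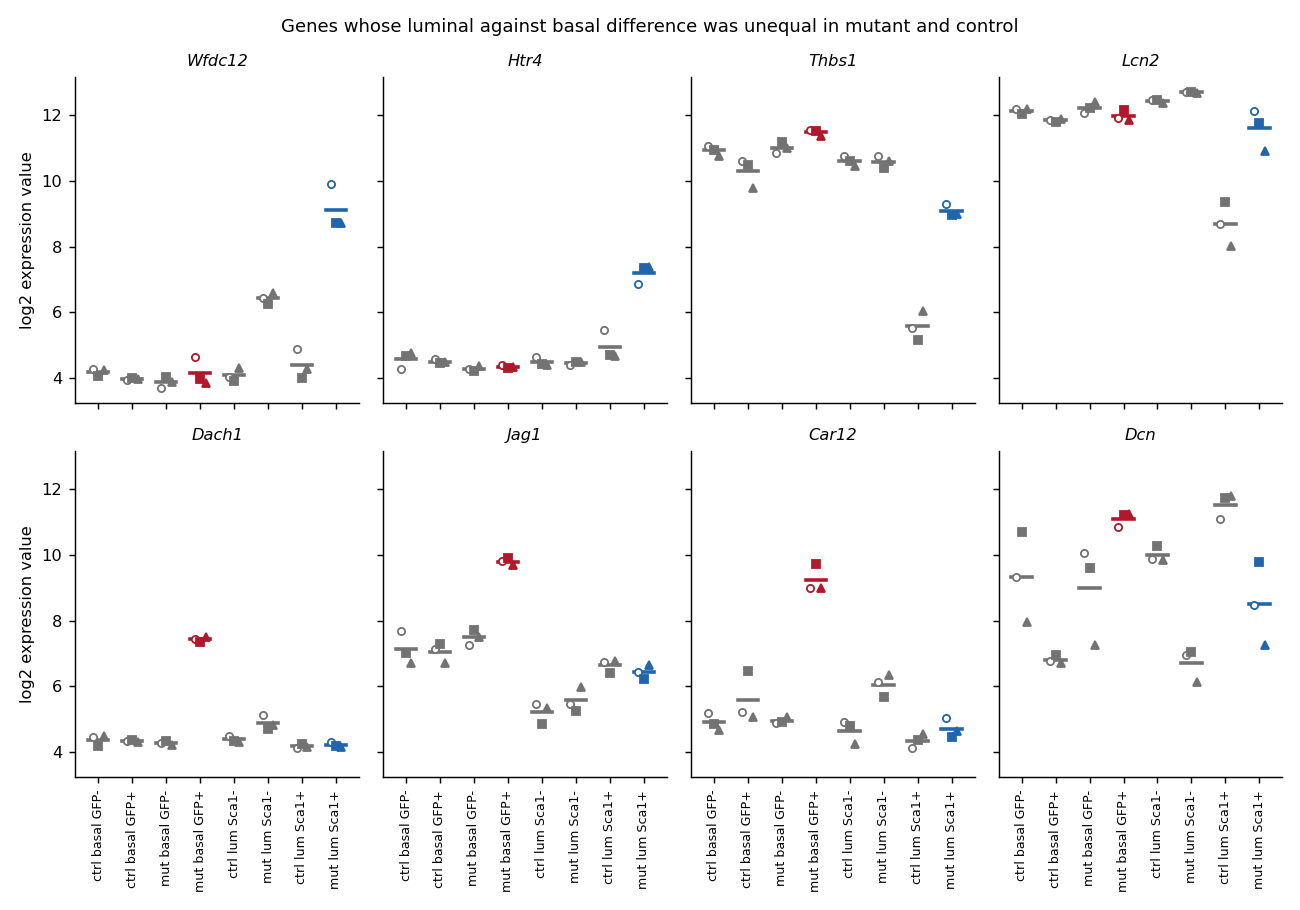
Log2 expression values (vertical axis) of 8 genes with a called interaction in all 8 sorted groups (horizontal axis, 3 arrays each, lines at means, replicate 1 open), with mutant basal GFP-positive cells in red and mutant luminal Sca1-positive cells in blue. Wfdc12 and Htr4 are highest in the blue arrays, Thbs1 and Lcn2 are lowest in control luminal Sca1-positive cells, and Dach1, Jag1 and Car12 are highest in the red arrays.

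With control basal GFP-positive cells as the control reference, the arrays that correlated least with each other, 580 genes passed the interaction test, 271 more positive and 309 more negative in mutant, and 185 of them were shared with the 261. Of the 38 interactions named by rule 30 kept their call in all alternatives run. The calls of Col1a2 and Cdkn1c were lost in most of them.

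The Sca1-negative luminal gate of the same mice separates genes of the luminal layer in general from those that go with Sca1. Between the 2 mutant luminal groups 729 genes were called (3.66%), 361 higher (1.81%) and 368 lower (1.85%) in Sca1-positive cells. A fit of only these groups called 319, and the count was 390 without Sca1-positive replicate 3, 463 without Sca1-positive replicate 2 and 428 without Sca1-negative replicate 1. Against the shared basal arrays, Sca1-negative cells gave 1567 calls (7.86%), 722 higher (3.62%) and 845 lower (4.24%), and the values below stand side by side for that reason.

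Between the luminal gates 1 of 38 junction genes was called higher and 2 lower in Sca1-positive cells, against 1.81% and 1.85% of all genes. Cldn3 averaged 10.24 and 10.20 in Sca1-positive and Sca1-negative cells, and Erbb3 8.64 and 8.25 (difference 0.39, adjusted p = 0.52). Of 25 hormone-sensing genes 11 were called higher and 0 lower (3 lower by limma's unadjusted p under 0.05). Esr1 stood at 4.84, 5.01 and 5.35 in Sca1-negative cells, near its basal levels, and was 2.14 higher in Sca1-positive cells (adjusted p = 0.00031). Foxa1 stood at 6.70, 7.60 and 8.53, between the basal and the Sca1-positive levels (difference 2.61, adjusted p = 0.0023, and 0.0634 in the fit of only these groups). Fgfr2, a fibroblast growth factor receptor, was 2.53 higher in Sca1-positive cells and not called against basal cells (0.27). AW112010 (3.21), Tspan1, a tetraspanin (2.87), Htr4 (2.74), Cxcl17 (3.01) and Epn3, an endocytic adaptor (2.19), were among the 8 higher genes with the smallest p, and Il33 was 4.10 higher.

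Progenitor and milk genes were lower in Sca1-positive than in Sca1-negative cells, 10 of 23 and 12 of 27 called lower and 0 higher in each list (0 and 1 higher by limma's unadjusted p under 0.05). Over all genes 1.85% were called lower and 1.81% higher. Kit stood at 8.51, 7.34 and 8.27 in Sca1-negative cells and was lower in Sca1-positive cells (difference -2.79, adjusted p = 0.00015, and 0.0779 in the fit of only these groups). Aldh1a3 stood at 9.63, 9.73 and 9.08 (difference -1.85), and Amtn, amelotin, at 10.08, 10.18 and 10.60 against 6.66, 7.36 and 6.07 (-3.59). Levels of these genes did not overlap between the luminal gates. Egfr, at 8.48, 8.98 and 8.67 in Sca1-negative cells, was as high there as in basal cells and lower in Sca1-positive cells (-2.87, adjusted p = 5.6e-06). Prkaa2, a catalytic subunit of AMP-activated kinase (-2.16), and Egln3, an oxygen-sensing prolyl hydroxylase (-3.65), were also among the lower genes with the smallest p. Basal keratin and adhesion genes had 4 of 36 higher and 4 lower, with Krt5 at 8.63, 7.92 and 8.94 in Sca1-negative cells (difference -2.02, adjusted p = 0.011, and 0.292 in the fit of only these groups, 0.0561 without Sca1-negative replicate 3 and 0.056 without Sca1-positive replicate 3).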

How the data were processed

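The authors deposited 1 log2 expression value per probe set and array for 24 Affymetrix arrays, with 34760 probe sets and values from 2.586 to 13.54. Per the submitters' processing notes affy was used. Its version, the background correction, the normalization and the summarization are not given in the sources used here, so that differences common to all genes may have been removed. RNA amplified from 250 cells may add noise for dim genes, and 3 arrays per group limit the precision.

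The 21640 probe sets with 1 gene symbol were kept, 21553 of them matched to RefSeq (GRCm38.p6) by Entrez identifier, and the probe set with the highest mean stood for each of 954 genes that had several. The 13120 others, 1321 with several symbols and 11799 with none, were left out. All 8 groups were fitted with lmFit and eBayes (limma 3.58.1, R 4.3.3, 16 residual degrees of freedom), with Benjamini-Hochberg adjustment over 19937 genes within each comparison and a threshold of 0.05. The fit was tested on simulated data. Groups were taken from the sample titles.

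Named by rule were the 12 largest called differences each way without overlap, up to 4 called members each way of each of 32 gene lists by p, up to 8 genes each way by p for the interaction and the luminal gates, and fixed lineage markers, leaving out predicted genes, olfactory receptors and small RNAs. The members and lists were chosen with earlier results of these data known. Alternatives were a fit of the compared groups alone, the replicate number as a block, quantile normalization, the dimmer genes (under the median gene level) left out, array weights, averaged probe sets, the control basal GFP-positive arrays left out or used as reference, and each array left out in turn.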

Additional observations from a re-analysis of the deposited data

Results flagged for a closer look

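The lineage difference, luminal Sca1-positive minus basal, was unequal in mutant and control cells for 261 genes by limma's interaction test (adjusted p under 0.05), with 3 arrays in each of the 4 groups. Those named in the text by rule are given here with the interaction on the log2 scale, mutant minus control. Among signalling and secreted factors it was -2.864 for Jag1, -3.04 for Nrg1, -2.516 for Cxcl12, -2.737 for Ednrb, -2.168 for Plxna2, 3.263 for Il17b and 1.648 for Fstl1. Among matrix and adhesion genes it was -2.872 for Matn2, -1.383 for Col4a5, -4.8 for Dcn, -0.8686 for Col1a2, -0.9383 for Ncam1, 1.831 for Col14a1, 1.976 for Ltbp2, 2.943 for Thbs1, -4.194 for Fndc1 and -5.313 for Mdga2. Among enzymes and transporters it was -3.973 for Car12, -2.627 for Xdh, 2.334 for Aldh1a3, 1.17 for Atp2c2, 2.447 for Scn7a, -3.424 for Lipk, -3.458 for Alox12e and -2.027 for Hpse2. Nuclear factors and cell cycle or stress regulators had -3.017 for Dach1, -1.025 for Klf2, -0.6485 for Cdkn1c and -2.706 for Sesn3. The remaining values were 4.751 for Wfdc12, 3.077 for Lcn2, 2.48 for Htr4, 2.589 for Crabp1, -2.968 for Lratd1, -3.206 for Brinp1, -1.486 for Tspan1, 1.021 for Sytl2 and 2.5 for Amtn. The Klf2 call was lost in 8 of 20 alternative settings (limma adjusted p up to 0.123). That of Ltbp2 ended when the 4 groups were fitted alone (0.0793) and without some single arrays (0.0501 to 0.0545). The Matn2 call ended without control luminal replicate 3 (0.0534).

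Amtn averaged 6.70 in mutant and 3.75 in control luminal Sca1-positive cells, against 4.18 and 3.73 in the basal groups. Tspan1 averaged 7.57 in mutant and 9.14 in control luminal cells, against 4.08 and 4.17 in the basal groups. Both interactions rested mainly on the luminal groups, in opposite directions. The control groups are GFP-negative and the mutant groups GFP-positive. With control basal GFP-positive cells as the basal reference 35 of these 38 genes kept their call, while for the luminal groups genotype and GFP state cannot be told apart.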

How the results depend on the processing

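The mutant luminal against basal count of 1938 moved to 1868 in a fit of the compared groups alone (1383 shared), 1864 with quantile normalization, 1833 without the dimmer genes and 2881 with array weights (1515 higher and 1366 lower), and to between 1528 and 1725 with 1 array left out. The control comparison (2616) gave 1692 in a fit of only its groups and 4002 with control basal GFP-positive cells as reference. That reference gave 580 interaction calls (271 and 309) in place of 261 (86 and 175). The luminal gates (729) gave 319 in a fit of only those groups. With 1 array left out, counts lay between 2061 and 2374 for control, 176 and 250 for the interaction, 390 and 703 for the luminal gates and 1154 and 1280 for Sca1-negative against basal cells. The causes were not tested. Same-numbered luminal and basal arrays had deviations correlated at 0.07, 0.0836 and 0.0704, each highest with its own number, and the labels do not say what a number shares. The replicate block gave 1973, 2657, 274, 756 and 1585 calls in the 5 comparisons. Of the calls named by rule, 148 of 184 in the main comparison, 30 of 38 interactions and 32 of 76 between luminal gates were kept in all settings run, and no named difference changed sign with a call.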
